A study of Mus musculus with 6 samples.

Results

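The genes described here are 30 genes that mark the identity and resting state of microglia, the brain's own macrophages. They were taken by name (Cx3cr1, P2ry12, P2ry13, Tmem119, Csf1r and 25 others) and not by a cut on their values. Earlier results of these data were known when they were chosen. They were read in RNA of freshly isolated oligodendrocytes, the myelin-forming cells of the brain, a preparation in which microglia are not the cells sought. The 30 names take up 31 of the 46983 rows of the deposited table, because Itgam is listed as 2 overlapping features. All 30 passed the filter on weakly expressed genes, with mean normalized counts from 65.1 (Ltc4s) to 4329 (Csf1r), and 15153 features passed it in all. The study compared 3 control libraries, labelled WT, with 3 Qk-KO libraries from Plp-CreERT2;QK LoxP/LoxP mice, genotype Qk-/-. Mice were FvB/C57BL6 hybrids given tamoxifen at 8 weeks, and brains were collected 4 days later. Plp is a myelin gene whose promoter drives the recombinase in oligodendrocytes, so microglia are not its intended target, and the labels used here do not give the alleles that the WT mice carry. They also do not say whether each library is a separate mouse, and p-values then measure only the spread between these libraries, which may be technical.

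Microglia arise from yolk sac progenitors and depend on signalling through the receptor encoded by Csf1r. In healthy brain they survey the tissue with fine processes, a state marked by the ADP receptor P2ry12, the fractalkine receptor Cx3cr1, the membrane protein Tmem119 and the transcription factor Sall1. Microglia that take up myelin debris or meet damage are known to lower part of this set and to raise genes of lipid handling and phagocytosis. Other members, such as Ptprc, Itgb2, Fcer1g and Spi1, are shared with macrophages and other blood cells and mark the lineage more than the resting state.

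Upstream sequence is shown for 4 members: Fcrls and Ly86, the called members with the largest changes, and the neighbouring ADP receptor genes P2ry12 and P2ry13, which are textbook markers of the resting state and were not called. Each run holds the 250 bases before the RefSeq transcription start, 5′ to 3′ on the gene's strand, in build GRCm38.p6. Capitals mark GAGGAA, a form of the binding motif of PU.1, the factor that the member Spi1 encodes. The windows are chr3:87263525-87263774 (minus strand) for Fcrls, chr13:37345095-37345344 (plus strand) for Ly86, chr3:59262986-59263235 (minus strand) for P2ry12 and chr3:59210883-59211132 (minus strand) for P2ry13.
Fcrls: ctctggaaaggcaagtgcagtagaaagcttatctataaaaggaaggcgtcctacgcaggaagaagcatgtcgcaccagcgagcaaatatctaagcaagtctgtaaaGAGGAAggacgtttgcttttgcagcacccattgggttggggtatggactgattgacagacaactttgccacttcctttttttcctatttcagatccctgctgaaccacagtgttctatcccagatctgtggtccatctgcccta
Ly86: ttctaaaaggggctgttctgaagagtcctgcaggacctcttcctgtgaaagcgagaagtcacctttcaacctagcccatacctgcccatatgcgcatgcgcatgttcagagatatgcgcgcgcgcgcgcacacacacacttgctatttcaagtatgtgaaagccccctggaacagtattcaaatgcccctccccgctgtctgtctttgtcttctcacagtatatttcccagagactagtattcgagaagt
P2ry12: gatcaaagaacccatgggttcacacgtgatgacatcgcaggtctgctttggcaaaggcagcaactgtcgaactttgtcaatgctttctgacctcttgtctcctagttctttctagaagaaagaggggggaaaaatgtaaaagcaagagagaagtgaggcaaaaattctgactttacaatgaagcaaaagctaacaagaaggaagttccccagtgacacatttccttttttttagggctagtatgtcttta
P2ry13: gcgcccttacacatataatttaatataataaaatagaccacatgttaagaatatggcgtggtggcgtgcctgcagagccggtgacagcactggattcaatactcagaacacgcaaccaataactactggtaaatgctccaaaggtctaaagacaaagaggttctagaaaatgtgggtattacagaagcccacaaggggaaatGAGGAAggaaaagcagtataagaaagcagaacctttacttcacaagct
The motif begins 144 bases before the RefSeq start of Fcrls and 48 bases before that of P2ry13, on the gene's own strand in both. In the GENCODE M21 annotation Fcrls reaches to 87263738 and Ly86 begins at 37345208. Their windows therefore overlap the annotated genes, and the marked motif of Fcrls lies inside its gene there. GAGGAA is in neither orientation in the windows of Ly86 and P2ry12. The shorter GGAA within it does occur in both, and unmarked in the other windows, and was not counted. Of the 30 members, 22 matched a RefSeq promoter entry, with 28 windows in all. GAGGAA or its reverse complement was in 12 of these 28 windows (42.9%), belonging to 11 genes, and in 23.3% of all 32851 promoter windows of the same length. The longer GAGGAAGT, which contains it, was in 2 of the 28 windows (7.14%), those of Hpgds and Inpp5d, and in 2.44% of all windows. Both were searched on both strands, and a match describes the sequence only.

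Values below are log2 values as deposited, listed in the order of replicates 1, 2 and 3, and every change is Qk-KO minus WT on that scale with its standard error (SE). A gene is called when its Benjamini-Hochberg adjusted p from limma, a linear model fitted over all 15153 features with n = 3 libraries per group, is under 0.05. The libraries held an estimated 23600000 to 78900000 reads. Ribosomal RNA features took 59.8% to 64.8% of them in every WT library and in Qk-KO replicate 1, and 1.88% to 2.23% in Qk-KO replicates 2 and 3. With those features left out of the total, 16 mature oligodendrocyte markers summed to 33187 to 41306 CPM (counts scaled to a common total) in WT and 42443 to 56704 CPM in Qk-KO. The 30 microglia genes summed to 843, 540 and 706 CPM in WT against 891, 918 and 2585 CPM in Qk-KO, the last value being Qk-KO replicate 3. In such bulk samples more cells of a type and more RNA per cell cannot be told apart.

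Of the 30 microglia genes, 4 rose in Qk-KO and none fell by limma: Unc93b1, Ly86, Fcrls and Irf8. That is 13.3% of the members, beside 13.8% of all features called higher, 14.8% called lower and 28.6% called in either direction, so the share called higher was near the background. At an unadjusted p under 0.05, 12 members were higher and 0 lower, beside 21.6% and 20.5% of all features. The change was above 0 for 27 of 30 members (90%), beside 52.8% of all features, and its median was 0.67, beside 0.03 over all features. Every Qk-KO library lay above every WT library in 11 of 30 members (36.7%), beside 24.5% of all features. Every Qk-KO library lay below in none of them, beside 21.8%. The authors' deposited table gives an adjusted p for 27 of the members and has 7 of them higher and none lower, beside 13.7% higher and 14.2% lower among all features with one. Those 7 in the authors' deposited table are Unc93b1, Irf8, Aif1, Csf1r, Hpgds, Cd53 and Itgb2. Fcgr3, Fcrls and Ly86 have log2 fold changes there (1.73 ± 0.64, 1.995 ± 0.617 and 2.20 ± 0.63). They have neither a p-value nor an adjusted p, for a reason not stated. The limma calls of Fcrls and Ly86 thus have no authors' p-value beside them. In these genes Qk-KO replicate 3 lay 2.28, 2.05 and 1.85 log2 units above the next highest library. In Itgb2, which has a p-value there, it lay 1.97 units above. The part of that library in the missing p-values was not tested.

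The size of the changes depended on Qk-KO replicate 3. That library was the highest of the 6 for 27 of 30 members (90%), beside 23.1% of all features. For 19 members it lay at least 1 log2 unit above each other library, a count for which no share of all features was computed. The members' median difference from the WT mean was 0.41, 0.16 and 1.52 in the Qk-KO libraries, beside 0.02, 0.03 and 0.04 over all features. Qk-KO replicate 3 lay above all WT libraries in 27 members and below them in 1, Sall1, beside 41.2% and 36.4% of all features. Qk-KO replicate 1 lay above them in 17 members and below in 3, beside 37.4% and 33.9%. For Qk-KO replicate 2 these counts were 13 and 4, beside 40% and 35.8%. Without Qk-KO replicate 3 the median change was 0.24, with 6 members higher and none lower, beside 11.4% and 13.9%. Those 6 were the 4 called members with Itgb2 and Fcgr3 added.

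**Figure D1:**
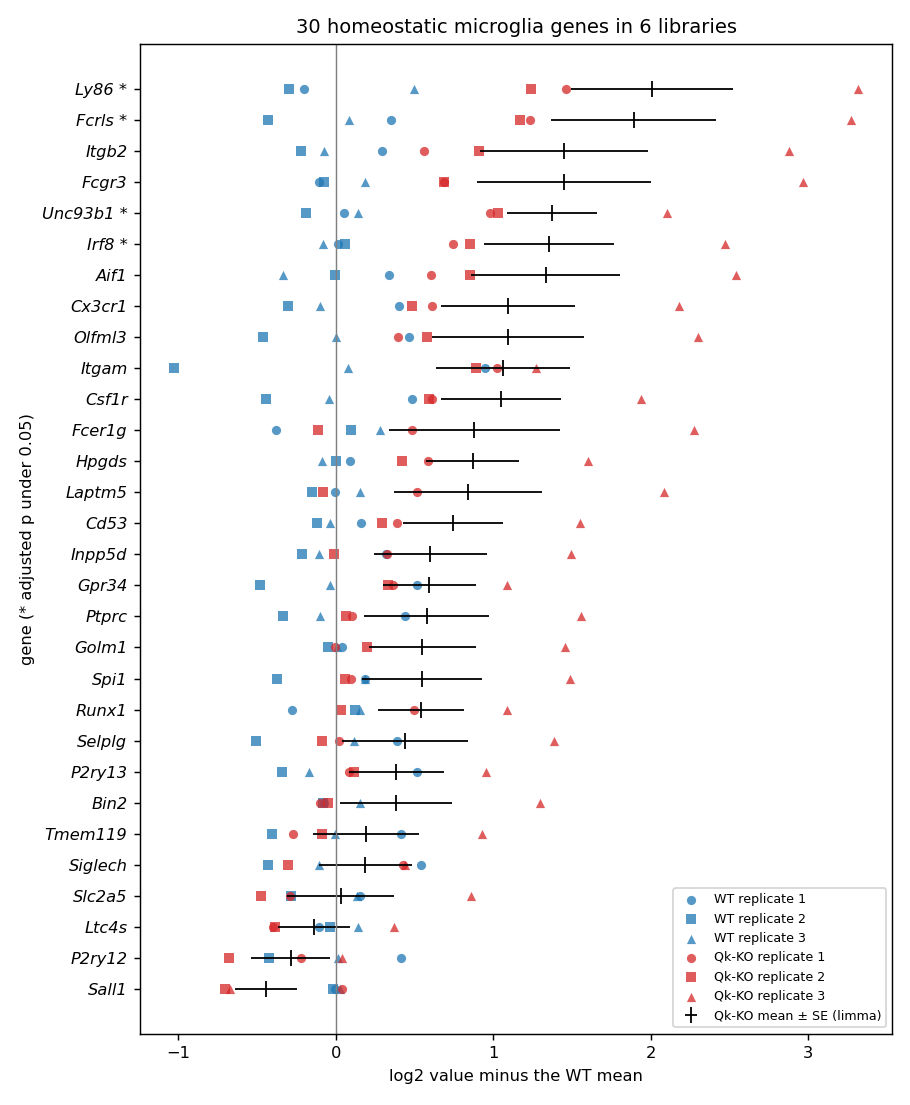
Log2 value minus the WT mean (x axis) for each of the 30 genes (y axis), 1 point per library, with the Qk-KO mean and its limma standard error in black and asterisks at an adjusted p under 0.05. The points of Qk-KO replicate 3 are the highest for 27 of 30 genes, and the mean change runs from -0.44 for Sall1 to 2.01 for Ly86.

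The WT libraries also differed from each other in these genes. WT replicate 1 lay above WT replicate 2 in 25 of 30 members, beside 47.9% of all features, and WT replicate 2 above WT replicate 3 in 3, beside 52.9%. The median SD within a group was 0.33 in WT and 0.79 in Qk-KO for the members, beside 0.16 and 0.19 over all features. Qk-KO replicates 1 and 2, which differ in ribosomal RNA content, had a median absolute difference of 0.15 over members, beside 0.21 over all features. The sample numbers in the labels fall into a lower series (WT replicate 1, Qk-KO replicates 1 and 2) and a higher series (WT replicates 2 and 3, Qk-KO replicate 3), whose meaning the labels do not give. Within the lower series the members' median difference was 0.04, with 17 of 30 above 0. Within the higher series it was 1.65, with 29 of 30 above 0. Over all features these medians were 0.03 and 0.04, with 52.7% and 52.5% above 0. Each series has a group with 1 library, so no test was made within it. With the series as a term in the model, 10 members were higher and none lower, beside 13.8% and 14.7%.

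Among the receptors with which microglia sense their surroundings, Csf1r, the receptor for CSF1 and IL-34, had log2 values of 11.76, 10.82 and 11.23 in WT against 11.88, 11.86 and 13.21 in Qk-KO. Every Qk-KO library was above every WT library, with Qk-KO replicate 1 only just above WT replicate 1. The change of 1.05 ± 0.38 was not called (limma adjusted p = 0.0731), whereas the authors' deposited table has 1.25 ± 0.39 at an adjusted p of 0.00714. Cx3cr1, the receptor for the neuronal chemokine fractalkine, gave 10.65, 9.95 and 10.15 in WT against 10.86, 10.74 and 12.43 in Qk-KO. Its groups did not overlap either, and the change was not called (1.09 ± 0.42, limma adjusted p = 0.0881). P2ry12, through which microglial processes are drawn to ADP, gave 9.21, 8.37 and 8.81 in WT against 8.57, 8.12 and 8.84 in Qk-KO. The groups overlapped, Qk-KO replicate 3 was not the highest library here, and the change was not called (-0.29 ± 0.25, limma adjusted p = 0.421). P2ry13, another ADP receptor, gave 8.25, 7.38 and 7.56 in WT against 7.81, 7.84 and 8.68 in Qk-KO. The groups overlapped, with Qk-KO replicate 3 alone above the WT range (0.38 ± 0.30, limma adjusted p = 0.365). Gpr34, a lysophosphatidylserine receptor, gave 8.15, 7.14 and 7.59 in WT against 7.99, 7.96 and 8.72 in Qk-KO. Qk-KO replicates 1 and 2 lay between the WT libraries (0.60 ± 0.30, limma adjusted p = 0.165).

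Among immune receptors, Fcrls, an Fc receptor-like molecule used as a microglial marker, had log2 values of 9.26, 8.48 and 8.99 in WT against 10.14, 10.08 and 12.19 in Qk-KO. All Qk-KO libraries were above all WT libraries, and it rose by 1.89 ± 0.52, or 3.71-fold (limma adjusted p = 0.0300). Ly86, which encodes MD-1, the partner of the Toll-like receptor relative RP105, gave 6.85, 6.75 and 7.55 in WT against 8.51, 8.29 and 10.37 in Qk-KO. The groups were apart, and it rose by 2.01 ± 0.51, or 4.02-fold (limma adjusted p = 0.0223), the largest change of the 30 genes. The call of Fcrls was lost without WT replicate 1, 2 or 3 (limma adjusted p = 0.0661, 0.101 and 0.0844) and that of Ly86 without WT replicate 1 or 2 (0.0803 and 0.0776). Fcgr3, a low-affinity IgG receptor, gave 7.65, 7.69 and 7.95 in WT against 8.45, 8.45 and 10.73 in Qk-KO. Its groups did not overlap, but the Qk-KO SD was 1.32 and the change was not called (1.45 ± 0.55, limma adjusted p = 0.0845). Fcer1g, the signalling chain that Fc receptors share, gave 7.12, 7.60 and 7.78 in WT against 7.98, 7.38 and 9.77 in Qk-KO. Qk-KO replicate 2 fell within the WT range and the other Qk-KO libraries above it (0.88 ± 0.54, limma adjusted p = 0.250). Siglech, a sialic acid-binding lectin of microglia, gave 7.80, 6.83 and 7.15 in WT against 7.69, 6.96 and 7.70 in Qk-KO. All its Qk-KO values lay within the WT range (0.19 ± 0.30, limma adjusted p = 0.665).

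Itgb2 and Itgam encode CD18 and CD11b, the chains of complement receptor 3. Itgb2 gave 8.67, 8.16 and 8.30 in WT against 8.94, 9.29 and 11.26 in Qk-KO, without overlap but with Qk-KO replicate 3 far above the rest (1.45 ± 0.53, limma adjusted p = 0.0757). Itgam is listed as a feature on chromosome 7 from 128062640 to 128118491 and as another from 128062683 to 128128160, plus strand, mm10, which GENCODE M21 names Gm49368. The first gave 9.58, 7.60 and 8.71 in WT against 9.66, 9.52 and 9.90 in Qk-KO (1.06 ± 0.42, limma adjusted p = 0.0954), with Qk-KO replicate 1 close to WT replicate 1. The second gave 4.90, 7.73 and 7.27 in WT against 6.98, 4.99 and 10.18 in Qk-KO, and was lowest in WT replicate 1 and Qk-KO replicate 2. How the counting divided reads of shared exons is not known, so Itgam is uncertain. With both features added after back-transformation, the log2 values were 9.63, 8.67 and 9.16 in WT against 9.87, 9.58 and 11.05 in Qk-KO, a mean difference of 1.01 given without a test. Ptprc, the leukocyte phosphatase CD45, gave 9.57, 8.79 and 9.03 in WT against 9.24, 9.20 and 10.69 in Qk-KO, and only Qk-KO replicate 3 left the WT range (0.58 ± 0.40, limma adjusted p = 0.302). Selplg, the selectin ligand PSGL-1, gave 9.09, 8.19 and 8.82 in WT against 8.72, 8.61 and 10.08 in Qk-KO, with the same arrangement (0.44 ± 0.40, limma adjusted p = 0.434).

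Of the 4 transcription factors, Irf8, which directs the myeloid lineage together with PU.1, gave 7.69, 7.74 and 7.60 in WT against 8.42, 8.53 and 10.15 in Qk-KO. The groups were apart, and Irf8 rose by 1.36 ± 0.41, or 2.56-fold (limma adjusted p = 0.0419), a call that was lost without WT replicate 1, 2 or 3 (0.110, 0.0980 and 0.119). Spi1, which encodes PU.1, gave 7.27, 6.72 and 7.28 in WT against 7.19, 7.14 and 8.58 in Qk-KO. Qk-KO replicates 1 and 2 lay within the WT range (0.55 ± 0.38, limma adjusted p = 0.308). Runx1, a factor of blood cell formation, gave 6.46, 6.87 and 6.89 in WT against 7.24, 6.77 and 7.83 in Qk-KO, with Qk-KO replicate 2 inside the WT range (0.54 ± 0.27, limma adjusted p = 0.169). Sall1, a zinc finger factor of microglial identity, gave 10.80, 10.79 and 10.84 in WT against 10.85, 10.11 and 10.14 in Qk-KO. It was lower in Qk-KO replicates 2 and 3, the libraries low in ribosomal RNA, and 0.04 above the WT mean in Qk-KO replicate 1 (-0.44 ± 0.20, limma adjusted p = 0.125). The part of library type in this value was not tested. The WT SD of Sall1 was 0.02, below the members' median of 0.33.

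Among membrane and signalling proteins, Unc93b1, which carries nucleic acid-sensing Toll-like receptors to endosomes, gave 9.25, 9.0 and 9.33 in WT against 10.18, 10.23 and 11.30 in Qk-KO. It rose by 1.37 ± 0.29, or 2.59-fold, with the lowest adjusted p of the 30 genes (limma adjusted p = 0.0100), and the call held without any 1 library. With a term for libraries low in ribosomal RNA in the model, which leaves Qk-KO replicate 1 to carry genotype, none of the 4 calls held (limma adjusted p = 0.124 for Unc93b1). Aif1, which encodes the actin-bundling protein IBA1, gave 6.33, 5.98 and 5.65 in WT against 6.59, 6.84 and 8.53 in Qk-KO, without overlap (1.33 ± 0.47, limma adjusted p = 0.0678). In the authors' deposited table Aif1 has a log2 fold change of 2.14 ± 0.56 and an adjusted p of 0.000971. Laptm5, a lysosomal membrane protein of blood cells, gave 10.10, 9.96 and 10.26 in WT against 10.62, 10.02 and 12.19 in Qk-KO. Qk-KO replicate 2 was inside the WT range (0.84 ± 0.47, limma adjusted p = 0.211). The tetraspanin gene Cd53 gave 8.18, 7.90 and 7.99 in WT against 8.41, 8.31 and 9.58 in Qk-KO, without overlap (0.74 ± 0.32, limma adjusted p = 0.112). Inpp5d, the lipid phosphatase SHIP1, gave 9.16, 8.63 and 8.74 in WT against 9.16, 8.83 and 10.33 in Qk-KO, with Qk-KO replicates 1 and 2 close to or within the WT range (0.60 ± 0.36, limma adjusted p = 0.238). Bin2, a membrane-bending BAR protein gene, had Qk-KO replicates 1 and 2 at 7.06 and 7.11, near the WT values of 7.08 to 7.31, and Qk-KO replicate 3 at 8.46 (0.38 ± 0.35, limma adjusted p = 0.442). Tmem119, used to tell microglia from infiltrating macrophages, gave 8.48, 7.66 and 8.06 in WT against 7.80, 7.98 and 9.0 in Qk-KO. Only Qk-KO replicate 3 was above the WT range (0.19 ± 0.34, limma adjusted p = 0.699).

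Enzymes, transporters and secreted proteins of the set were mixed. Hpgds, the haematopoietic prostaglandin D synthase, gave 7.19, 7.10 and 7.01 in WT against 7.69, 7.52 and 8.70 in Qk-KO, without overlap (0.87 ± 0.29, limma adjusted p = 0.0591). Ltc4s, leukotriene C4 synthase, was below the WT range of 5.90 to 6.15 in Qk-KO replicates 1 and 2 (5.61 and 5.62) and above it in Qk-KO replicate 3 (6.38) (-0.14 ± 0.23, limma adjusted p = 0.682). Slc2a5, the fructose transporter GLUT5, behaved alike, with 5.60, 5.41 and 6.75 in Qk-KO beside 5.60 to 6.04 in WT (0.03 ± 0.34, limma adjusted p = 0.955). The secreted glycoprotein gene Olfml3 gave 8.72, 7.79 and 8.25 in WT against 8.65, 8.83 and 10.55 in Qk-KO, with Qk-KO replicate 1 inside the WT range (1.09 ± 0.48, limma adjusted p = 0.125). Golm1, a Golgi membrane protein gene, gave 8.86, 8.77 and 8.83 in WT against 8.81, 9.02 and 10.27 in Qk-KO. Qk-KO replicate 1 was inside the narrow WT range, replicate 2 slightly above it and replicate 3 far above (0.55 ± 0.34, limma adjusted p = 0.253).

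Values relative to Csf1r in the same library set the members against each other, as a description, since this reference and the genes shown were chosen after the values had been seen. The log2 value of P2ry12 minus that of Csf1r was -2.54, -2.45 and -2.42 in WT against -3.31, -3.74 and -4.37 in Qk-KO. The groups did not overlap, and relative to Csf1r P2ry12 was 2.52-fold lower in Qk-KO. Tmem119 minus Csf1r was -3.27, -3.16 and -3.16 in WT against -4.08, -3.88 and -4.20 in Qk-KO, 1.81-fold lower. For Siglech the difference from Csf1r was -3.96, -3.99 and -4.08 in WT against -4.19, -4.91 and -5.51 in Qk-KO. Of the 29 other members, 13 were lower relative to Csf1r in each Qk-KO library than in any WT library (44.8%, beside 46.1% of all features), a share near the background. The value of Csf1r was itself higher in Qk-KO, which moves every feature lower on this scale, and the same holds for the median of the 30 genes used next. The 13 members are Sall1, P2ry12, Ltc4s, Slc2a5, Siglech, Tmem119, Bin2, P2ry13, Selplg, Spi1, Ptprc, Gpr34 and Inpp5d, so markers of the lineage such as Ptprc and Spi1 are among them. Fcrls minus Csf1r went the other way, from -2.50, -2.34 and -2.23 in WT to -1.74, -1.78 and -1.02 in Qk-KO, and Ly86 did too, the 2 members that were higher without overlap (6.9%, beside 0.297% of all features). Cx3cr1 minus Csf1r overlapped, at -1.02 ± 0.13 in WT and -0.97 ± 0.18 in Qk-KO (SD, n = 3, exact two-sided permutation p = 0.7). For P2ry12, Tmem119, Siglech and Fcrls that exact permutation p was 0.1, the smallest that 3 libraries against 3 can give, so none could pass 0.05. A limma fit of all features relative to Csf1r, which lends the spread of Csf1r to every gene, called none of the 29 other members, beside 15.2% of features lower and 0.066% higher. In it P2ry12 had an adjusted p of 0.0957 and Sall1 of 0.0776, and 3 members were lower and 0 higher at an unadjusted p under 0.05, beside 36.7% and 0.145% of all features.

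**Figure D2:**
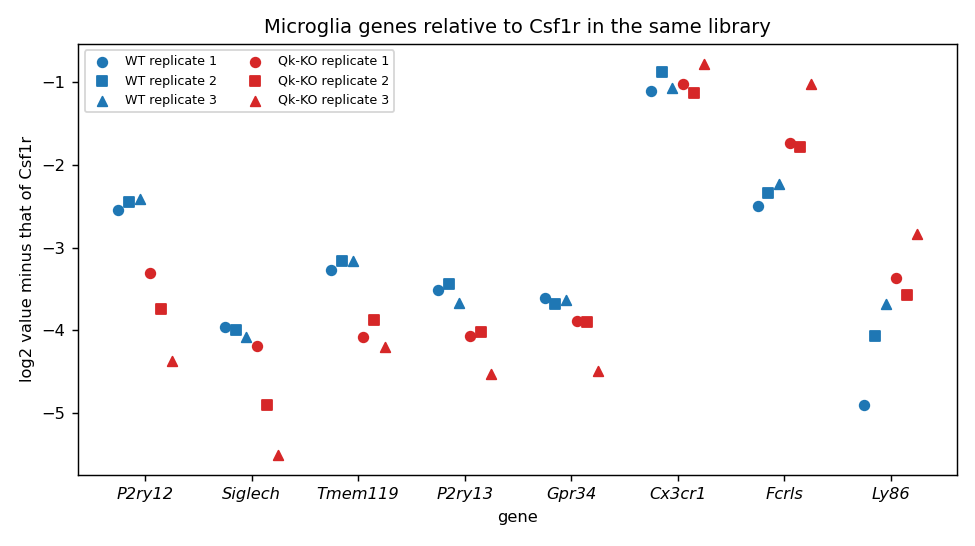
Log2 value of members minus that of Csf1r in the same library (y axis), 1 point per library with colours for the groups. P2ry12 runs from -2.54 to -2.42 in WT and from -4.37 to -3.31 in Qk-KO, while Cx3cr1 overlaps between the groups and Fcrls is higher in Qk-KO.

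Set against the median of the 30 genes in each library, P2ry12 stood at 0.76 ± 0.10 in WT but at -0.44 ± 0.65 in Qk-KO (± SD, 3 libraries each). Tmem119 went from 0.04 ± 0.08 to -0.69 ± 0.30. Ly86 went from -0.98 ± 0.52 to 0.10 ± 0.24 and Fcrls from 0.88 ± 0.10 to 1.85 ± 0.30. In all, 10 members were lower relative to the median in every Qk-KO library than in any WT library (Sall1, P2ry12, Ltc4s, Slc2a5, Tmem119, P2ry13, Selplg, Spi1, Ptprc and Inpp5d), or 33.3% beside 40.8% of all features. Another 4 were higher (Cx3cr1, Itgb2, Fcrls and Ly86), or 13.3% beside 0.442%, and 16 overlapped. The median is made of the same genes, so these positions are a description. As levels per length, in CPM per kilobase of exon, Csf1r was the highest in WT at 22.3 ± 7.79, followed by Sall1 at 17.1 ± 0.897, Laptm5 at 14.6 ± 2.04 and Cx3cr1 at 13.9 ± 3.92 (SD, n = 3). No 2 neighbours among these 4 differed by more than the sum of their SDs. Lower in the order, Irf8 and Hpgds did, and so did Slc2a5 and Runx1. In Qk-KO Fcrls, at 51.9 ± 48.5, and Csf1r, at 51.3 ± 32.2 CPM per kilobase, were at the top and not apart beyond their spread. P2ry12 went from rank 8 of 30 in WT to rank 16 in Qk-KO, at levels of 9.05 ± 2.82 and 7.55 ± 1.94 CPM per kilobase. Ly86 went from rank 25 to rank 11, and Runx1 had the lowest level per length in both groups.

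**Figure D3:**
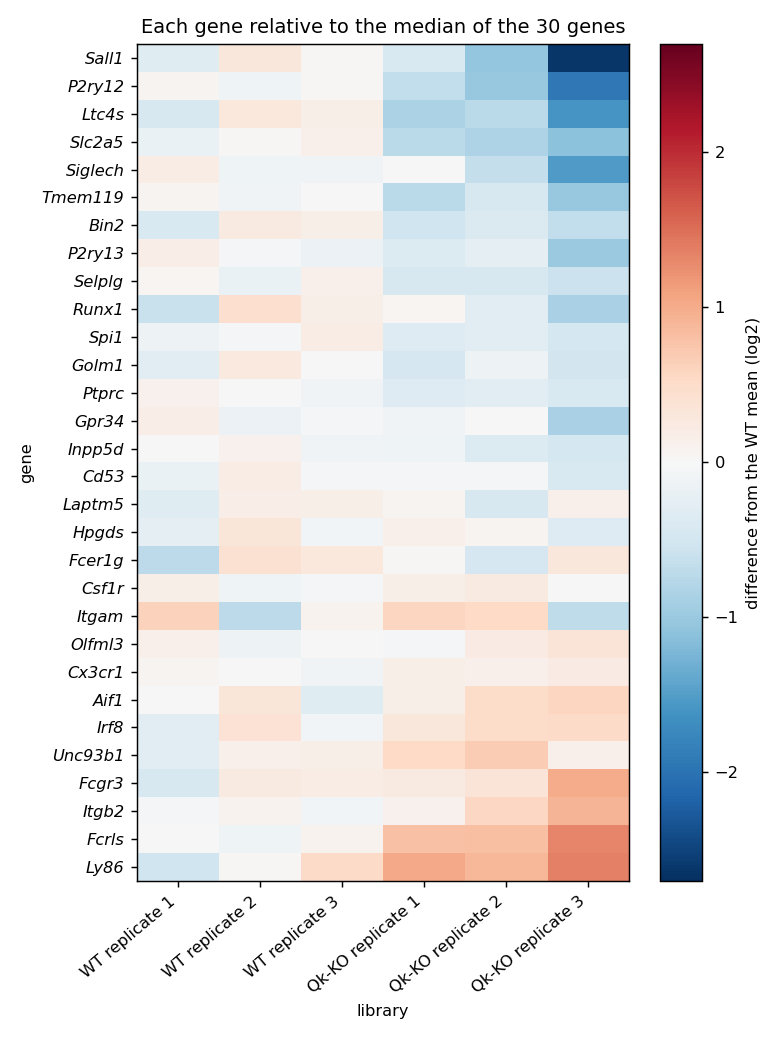
Heat map of the members (rows) in the 6 libraries (columns), coloured by the log2 value relative to the median of the 30 genes in that library, shown as the difference from the gene's WT mean (blue lower, red higher). Sall1 and P2ry12 fall back most against the median in Qk-KO, and Fcrls and Ly86 move up most.

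Of 18 genes of ligands, receptors and signals that maintain microglia, 1 rose and 6 fell, with a median change of -0.23. For this list and those that follow, 13.8% of all features were called higher and 14.8% lower. Csf1, a ligand of the receptor encoded by Csf1r, gave 11.17, 11.41 and 11.24 in WT against 12.41, 12.31 and 12.67 in Qk-KO, close together in all Qk-KO libraries, and rose by 1.19 ± 0.13 (limma adjusted p = 0.000708). Tgfb2, a transforming growth factor, fell by 1.25 ± 0.15, the fractalkine gene Cx3cl1 by 1.22 ± 0.20 and Il34, the other ligand of the Csf1r receptor, by 0.56 ± 0.15. Tgfb1 (0.05 ± 0.31) and Tgfb3 (-0.05 ± 0.13), related to Tgfb2, were not called. In the same libraries 13 of 14 astrocyte markers fell (Slc7a10 -3.30 ± 0.13, Fgfr3 -2.83 ± 0.14), with medians of -2.67, -2.52 and -3.19 in Qk-KO, and their part in the falls of ligand genes was not tested. Of 20 genes of the immune receptor kinase pathway 2 rose and none fell, with a median of 0.58: the adaptor gene Tyrobp (2.24 ± 0.59) and the inhibitory receptor gene Lilrb4a (1.59 ± 0.38). Of 13 other purinergic and related receptors 3 rose and 3 fell, the falls including P2ry1 (-1.20 ± 0.18) and Adora2a (-0.78 ± 0.16). Of 18 tested transcription factors of microglia and macrophages 2 rose, Nfe2l3 (1.0 ± 0.11) among them, and 4 fell, Bhlhe40 (-1.14 ± 0.12) among them. The shares called higher in the kinase pathway and among these factors were below that of all features.

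Of 28 other microglia-enriched genes tested 9 rose and 1 fell, with a median of 0.82. The protease gene Ctss rose by 2.42 ± 0.49, and Mertk, a receptor for dying cells that astrocytes also express, fell by 1.26 ± 0.18. Of 25 genes of activated microglia 16 rose and none fell, with a median of 1.54 beside 0.67 for the 30 members, lineage markers included. Without Qk-KO replicate 3, 16 activated genes rose as well, beside 11.4% of all features. The activated genes' median difference from WT was 0.99, 1.03 and 2.47 in the Qk-KO libraries, where the 30 members had 0.41, 0.16 and 1.52. The cystatin gene Cst7 rose by 4.03 ± 0.55 within this list, which shares Csf1, Tyrobp and Trem2 with the lists above. The difference between the lists was not tested.

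**Figure D4:**
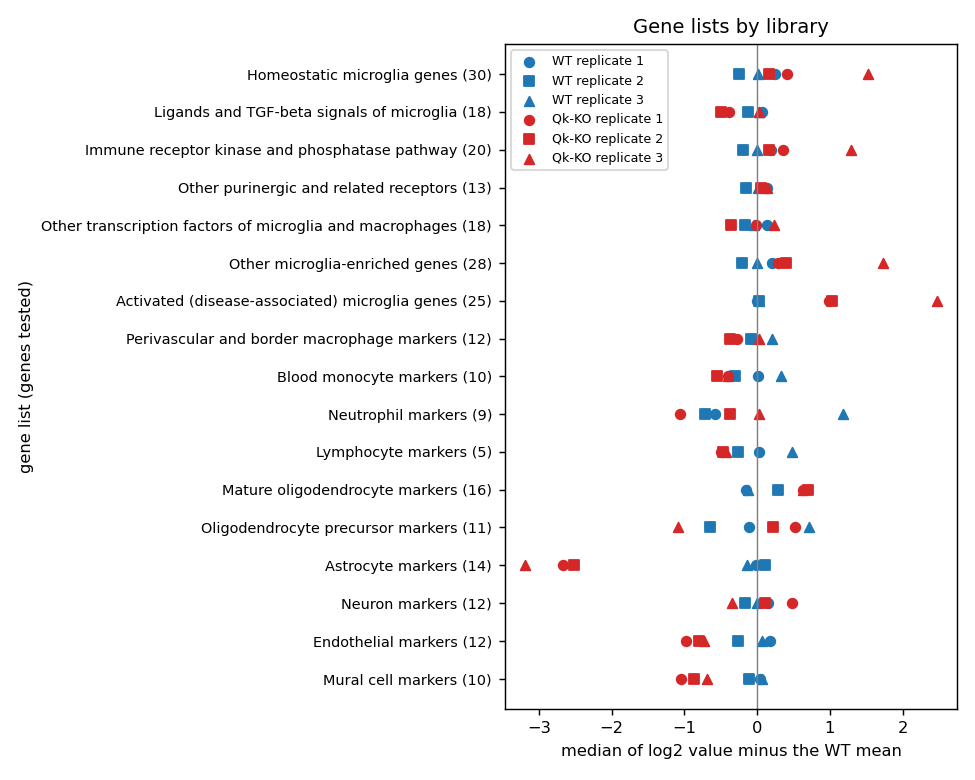
Median over the tested genes of each list (y axis) of the log2 value minus the WT mean (x axis), 1 point per library with colours for the groups. The homeostatic microglia genes lie at 0.41, 0.16 and 1.52 in Qk-KO replicates 1, 2 and 3 and the activated genes at 0.99, 1.03 and 2.47, while the astrocyte, endothelial and mural cell lists lie below 0 in each.

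Other immune cells also express members such as Ptprc, Itgb2 and Spi1. Of the markers of perivascular macrophages, monocytes, neutrophils and lymphocytes none was called higher by limma. At an unadjusted limma p under 0.05, 1 perivascular gene and 0 of the other 3 lists were higher, beside 21.6% of all features. Of 12 tested markers of perivascular macrophages 2 fell by limma, Mrc1 by 0.68 ± 0.14 and Mgl2 by 0.79 ± 0.17. The authors' deposited table has 2 of the list higher and 3 lower. Siglec1 (1.44 ± 0.49, limma adjusted p = 0.0609) and Ms4a7 (0.95 ± 0.45, limma adjusted p = 0.146) were not called. Both were higher in every Qk-KO library than in any WT library, beside 24.5% of all features. Another 3 of the list were lower in every Qk-KO library, beside 21.8%. The list summed to 138 to 188 CPM in WT against 115, 129 and 248 CPM in Qk-KO. Cbr2 of that list was at 4.95 to 5.72 in the other libraries and at 8.91 in Qk-KO replicate 3, the library in which the members were highest, and its part in their values was not tested. Of 10 tested blood monocyte markers 4 fell, including Ly6c2 (-0.80 ± 0.21) and Fn1 (-0.69 ± 0.20), and the list summed to 400 to 656 CPM in WT and 361 to 397 CPM in Qk-KO. Of 9 tested neutrophil markers none was called, with S100a9 at -0.67 ± 0.61 and Ngp at -0.37 ± 0.85, and the sum was 18.8 to 87.5 CPM in WT and 13.6 to 39.5 CPM in Qk-KO. Of 16 lymphocyte markers 5 passed the filter and none was called, with Cd79a at -0.69 ± 0.27 and Pax5 at -0.61 ± 0.31, and the sum was 7.13 to 11.9 CPM in WT and 6.40 to 7.71 CPM in Qk-KO. The T cell genes Cd3e and Cd3g had mean normalized counts of 0.44 and 0.66, and Cd3d was at 0 in every library. The authors' deposited table has none of the monocyte, neutrophil and lymphocyte markers higher. Beside the microglia genes, 7 of 16 mature oligodendrocyte markers rose, Opalin (1.24 ± 0.15) and Gjb1 (1.07 ± 0.16) among them, while 11 of 12 endothelial markers (Cdh5 -1.15 ± 0.15, Kdr -1.01 ± 0.14) and 9 of 10 mural cell markers (Pdgfrb -1.31 ± 0.10, Notch3 -1.37 ± 0.11) fell. Of 11 markers of oligodendrocyte precursors 2 fell, Ptprz1 (-2.13 ± 0.38) and Sox6 (-1.17 ± 0.27), and of 12 neuron markers 3 rose, Snhg11 (1.93 ± 0.39) and Slc17a7 (0.82 ± 0.18) among them. The part of cell composition in the members' changes was not tested.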

How the data were processed

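The deposited data are 1 table of 46983 features for 3 WT and 3 Qk-KO libraries. FastQC, TopHat2 2.0.14, featureCounts, DESeq2 and build mm10 are named in the submitters' processing notes, with roles, strandedness, annotation and filters not stated. The authors deposited 1 log2 value per feature and library, which behaves as a regularized log2 value and so shrinks differences of weak genes. Mean normalized counts were deposited as a signal (counts over size factors, all libraries together). Fold changes (log2), a Wald score, p-value and adjusted p are the authors', per the file headers.

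Limma 3.58.1 (R 4.3.3, mean-variance trend, genotype only) was fitted to the log2 values of features with a mean of at least 20, and was tested on simulated data. CPM came from back-transformed values without Gm42418, Gm26917, mt-Rnr1 and mt-Rnr2, taken as ribosomal, and lengths from the union of GENCODE M21 exons (same build, identifiers matched without version, all 30 members found). Read totals were estimated from the smallest step of the values, with size factors from 0.447 to 4.15. For Itgam the feature of higher mean is counted. All 30 members are named. Of other lists the 2 called genes of lowest adjusted p are named, or the 2 most abundant where fewer than 2 were called. Cx3cl1, Il34, Tgfb1, Tgfb3, Cbr2, Siglec1, Ms4a7, Cd3e, Cd3g and Cd3d were named after their values were seen. Members and lists were chosen with earlier results of these data known. The alternatives tried, 20 in all, are in the closing section.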

Additional observations from a re-analysis of the deposited data

How the results depend on the processing

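Against 4 members called higher and none lower in all libraries, leaving out 1 library gave 1 to 9 higher, 0 to 1 lower and a median change from 0.24 to 0.94. Without WT replicate 1, 2 or 3 the count higher was 2 (beside 7.22%), 1 (beside 10.2%) and 2 (beside 6.92%), the shares in brackets being of all features. Without Qk-KO replicate 1 it was 9 (beside 18.7%), with Sall1 lower (1, beside 18.4%), and without Qk-KO replicate 2 it was 5 (beside 6.13%). It was 1 (beside 5.9%) with no filter and 0 (beside 5.76%) with a term for libraries under 10% ribosomal RNA. That term leaves Qk-KO replicate 1 to carry genotype. The count was 19 (beside 15.7%) with library size alone, which shifts the median of all features to 1.09. It was 8 (beside 16.8%) with sample quality weights (1 lower, beside 16.7%), 10 with the sample number series and 7 in the authors' deposited table. Each Qk-KO library alone against WT gave 3 (beside 6.17%), 5 (beside 10.8%) and 21 (beside 14.1%) higher, and Sall1 (1) lower with replicates 2 and 3 (beside 12.9% and 14.1%). These fits lend the WT spread to the lone library, while the members' median SD was 0.79 in Qk-KO against 0.33 in WT (Sall1 0.42 against 0.02), so their calls support nothing. The median was 1.52 with Qk-KO replicate 3 alone and 1.73 with library size alone. Unc93b1 was called in all 6 fits without 1 library, at limma adjusted p-values from 0.00165 to 0.0422. In the authors' deposited table its adjusted p was 6.54e-06. With library type in the model Unc93b1 was not called (limma adjusted p = 0.124). Limma adjusted p-values without WT replicates 1, 2 and 3 were 0.0661, 0.101 and 0.0844 for Fcrls, 0.110, 0.0980 and 0.119 for Irf8 and 0.0803, 0.0776 and 0.0452 for Ly86. With no filter they were 0.0796, 0.10 and 0.0613, and with library type 0.291, 0.392 and 0.219.

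Signs changed only in members not called in all libraries. Leaving out 1 library gave -0.18 to 0.42 for Tmem119, -0.028 to 0.46 for Siglech, -0.033 to 0.70 for Selplg, -0.38 to 0.29 for Slc2a5 and -0.075 to 0.62 for Bin2. Library type, and equally Qk-KO replicate 1 alone, gave Tmem119 -0.27, Sall1 0.041, Slc2a5 -0.29, Bin2 -0.099, Golm1 -0.0039. Qk-KO replicate 2 alone gave Tmem119 -0.088, Siglech -0.30, Selplg -0.090, Laptm5 -0.080, Fcer1g -0.11, Slc2a5 -0.48, Bin2 -0.051, Inpp5d -0.014. Qk-KO replicate 3 alone gave P2ry12 0.038, Ltc4s 0.37, the number series Ltc4s 0.016, and library size alone P2ry12 0.77, Sall1 0.61, Ltc4s 0.92. The cause of these differences was not tested. Deviations of same-numbered libraries correlated at 0.104, 0.00462 and 0.0821, so the numbers are not treated as pairs, and not every library correlated best with its own number. With the replicate block 5 members were higher (beside 13.8%) and none lower, with a median of 0.67. A mean of 20 stands for 8.94 to 12.3 reads in the 4 shallower libraries, which limits the weakest members.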
